A study of Mus musculus with 6 samples.

Results

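The genes described here encode DOT1L, the methyltransferase of histone H3 lysine 79 (H3K79), and the SET1 COMPASS complexes, which methylate histone H3 lysine 4 (H3K4). They were chosen by gene symbol, as the catalytic subunits and shared subunits of the enzymes whose activity is promoted by ubiquitination of histone H2B, with menin of the related MLL complexes added. The list holds 10 genes of the 24015 in the count tables, namely *Dot1l*, *Setd1a*, *Setd1b*, *Ash2l*, *Wdr5*, *Rbbp5*, *Dpy30*, *Cxxc1*, *Wdr82* and *Men1*. All 10 were among the 11371 genes that passed the filter on low counts.

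RNA-Seq had been carried out on mouse sciatic nerves at postnatal day 14. Control mice carried floxed *Rnf40* alleles (Rnf40 fl/fl) without Cre, and Rnf40ΔSC mice carried Dhh::Cre together with Rnf40 fl/fl, both on a background that the labels give as mixed 129SvJ/C57Bl/6J and the methods as C3H × C57Bl/6J. Each genotype was represented by 3 libraries, each made from a pool of 3 nerves. Dhh::Cre acts in the Schwann cell lineage. The paper reports that RNF40 was still detected in other cells of the nerve, which counts from whole nerve do not separate.

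RNF40 and RNF20 form the E3 ligase that places a single ubiquitin on histone H2B in transcribed genes. This mark stimulates DOT1L and the SET1 complexes, which then methylate H3K79 and H3K4. SETD1A and SETD1B are alternative catalytic subunits, the WRAD core of WDR5, RBBP5, ASH2L and DPY30 is shared with the MLL complexes, CXXC1 and WDR82 belong to the SET1 complexes, and menin belongs to MLL complexes.

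Libraries held 1317167, 1992622 and 2468765 counts in control and 2184268, 1459387 and 2186710 counts in Rnf40ΔSC nerves, so that 1 read stood for 0.405 to 0.759 CPM (the count scaled by library size). Values below are normalized counts, brought to 1 library size with TMM factors. The 10 genes together took between 610 and 617 CPM in control and between 772 and 879 CPM in Rnf40ΔSC libraries. After TMM scaling their sum was 1286, 1339 and 1295 normalized counts in control and 1408, 1357 and 1533 in Rnf40ΔSC libraries, and the groups did not overlap on either scale. Total-count scaling in place of TMM moved the median log2 fold change of all genes tested from -0.003 to 0.27, and directions are given relative to the TMM scale unless stated.

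The deleted gene was examined to check the labels. *Rnf40* had 130, 126 and 142 normalized counts in control and 90.2, 90.4 and 94.2 in Rnf40ΔSC libraries. All 3 Rnf40ΔSC libraries lay below all 3 controls. The count covers the whole gene, so that reads from exons that are not floxed remain part of it. Its log2 fold change was -0.54 (SE 0.14, adjusted p = 0.00242, edgeR's quasi-likelihood test, Benjamini-Hochberg adjusted over all genes tested), and -0.27 under total-count scaling (adjusted p = 0.12 from the same test, over a range of 0.00207 to 0.12 among all alternatives). From counts of whole nerve alone, fewer cells of a type and less RNA per cell cannot be told apart. By staining, the paper reports that RNF40 was absent from Schwann cells of Rnf40ΔSC sciatic nerves at birth. It also reports that Schwann cells made up a comparable share of nerve cells in both genotypes at all ages examined.

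Of the 10 genes, 4 were higher in Rnf40ΔSC nerves, namely *Setd1b*, *Ash2l*, *Rbbp5* and *Dpy30*, against 15.4% of all genes tested. None was lower by edgeR's quasi-likelihood test (0 of 10, also 0 at an unadjusted p under 0.05 and 0 by DESeq2), against 16.2% of all genes tested. The same 4 genes had every Rnf40ΔSC library above every control library, which held for 22% of all genes, and 0 of the 10 had every Rnf40ΔSC library below, against 21.6%. The log2 fold changes of the 4 ran from 0.35 to 0.62, and 0 of the 10 passed the limits by which the study counted its genes (a p of at most 0.05, here the adjusted p, a log2 fold change of 0.8 or more in size and a mean normalized count of 20 or more), against 8.78% of all genes. DESeq2 called 1 of the 10 higher, *Setd1b*, without or with a fold-change prior, beside 1097 and 1123 genes higher over all genes. Total-count scaling called 7 of the 10, beside 3766 genes of the 11371 tested. With 1 library left out, 1 of the 10 was higher without control replicate 2 (*Dpy30*) or Rnf40ΔSC replicate 1 (*Setd1b*). The number was 2 without control replicate 3 or Rnf40ΔSC replicate 2 (*Setd1b* and *Dpy30*). It was 3 without control replicate 1 (*Setd1b*, *Rbbp5* and *Dpy30*) and 4 without Rnf40ΔSC replicate 3. Over all genes, the fits with 1 library left out called 1293 to 1915 higher, beside 1756 with all libraries. The median log2 fold change of the 10 genes was 0.22, beside -0.003 over all genes tested; it was 0.078 without control replicate 3, 0.12 without Rnf40ΔSC replicate 3 and 0.49 under total-count scaling.

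**Figure D1:**
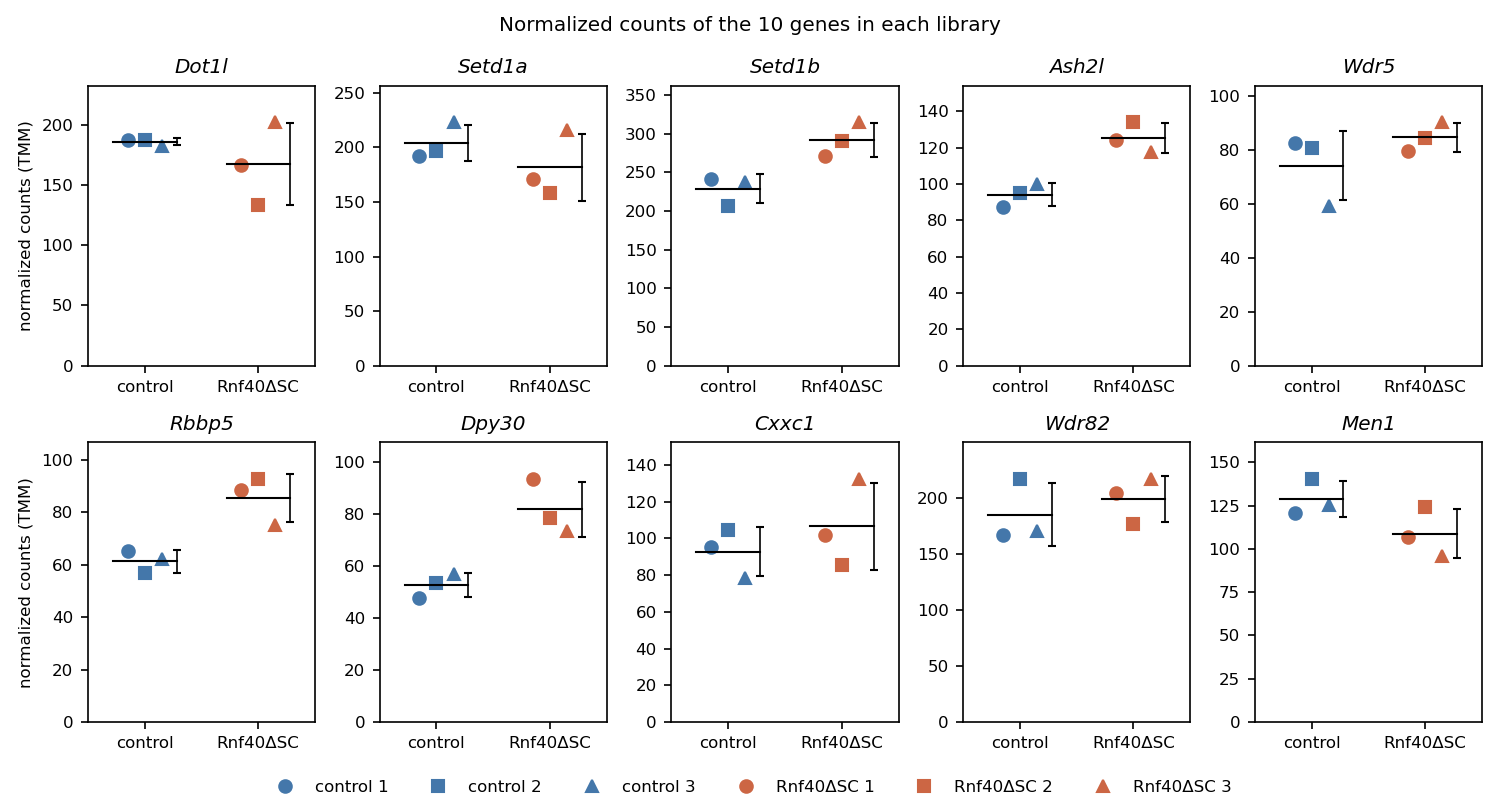
Normalized counts (TMM, y axis from 0) of each of the 10 genes in 3 control and 3 Rnf40ΔSC libraries; symbols are libraries, horizontal lines are group means and bars are the SD (n = 3). The groups are separate for *Setd1b*, *Ash2l*, *Rbbp5* and *Dpy30* and overlap for the other genes.

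*Dot1l* (mm9 chromosome 10, 80217951 to 80258206, plus strand) encodes the H3K79 methyltransferase itself. It had 187, 187 and 182 normalized counts in control and 166, 134 and 202 in Rnf40ΔSC libraries. Controls were almost level, whereas the Rnf40ΔSC libraries lay on both sides of them, replicate 2 lowest and replicate 3 highest. The log2 fold change was -0.13 (95% confidence interval -0.39 to 0.12, adjusted p = 0.456 in edgeR's quasi-likelihood test, Benjamini-Hochberg adjusted) and took the other sign, 0.14, under total-count scaling. It was -0.005 without Rnf40ΔSC replicate 2 and -0.279 without Rnf40ΔSC replicate 3, and passed the same test in neither fit.

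*Setd1a* (chromosome 7, 134920184 to 134943636, plus strand) encodes a catalytic subunit of SET1. It had 192, 197 and 223 normalized counts in control and 171, 158 and 216 in Rnf40ΔSC libraries. Rnf40ΔSC replicates 1 and 2 were below all controls, as for *Dot1l*, and replicate 3 was among the controls, whereas for *Dot1l* it was above them. The log2 fold change was -0.16 (95% confidence interval -0.41 to 0.08, adjusted p = 0.317 in edgeR's quasi-likelihood test, Benjamini-Hochberg adjusted), and 0.11 under total-count scaling. Without Rnf40ΔSC replicate 3 it was -0.31 and passed the same test (adjusted p = 0.0489, range over all alternatives 0.0489 to 0.77). In the mm9 annotation, 3523 of the 6795 exon bases of *Setd1a* (51.9%) also lie in exons of its neighbour *Hsd3b7* on the same strand, which had 26 to 65 counts in control and 24 to 38 in Rnf40ΔSC libraries, so that the *Setd1a* count is uncertain to the extent that reads there were dropped or assigned to the neighbour.

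*Setd1b* (chromosome 5, 123592202 to 123617444, plus strand), the paralogue that serves as the alternative catalytic subunit, had 241, 207 and 238 normalized counts in control and 271, 291 and 314 in Rnf40ΔSC libraries. Each Rnf40ΔSC library was above each control library. Its mean of 229 ± 18.8 normalized counts in control was 292 ± 21.9 in Rnf40ΔSC nerves, a 1.28-fold rise (SD, n = 3 libraries; log2 fold change 0.35, SE 0.11, adjusted p = 0.00877 in edgeR's quasi-likelihood test, Benjamini-Hochberg adjusted). Among the 17 alternative settings the call was lost in 1, the fit without control replicate 2, the library with the lowest value (log2 fold change 0.28, adjusted p = 0.0772, range over all alternatives 2.11e-05 to 0.0772).

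The *Setd1a* count is uncertain over the exons shared with *Hsd3b7*, and so is the size of ratios to it. The ratio of *Setd1b* to *Setd1a* counts within a library does not depend on how libraries are scaled. It was 1.26, 1.05 and 1.07 in control and 1.58, 1.84 and 1.45 in Rnf40ΔSC libraries. The highest control ratio was below the lowest Rnf40ΔSC ratio. The mean log2 ratio differed by 0.53, and a two-sided exact permutation test over libraries gave p = 0.1, the smallest that 3 against 3 libraries allow (0.2 after Benjamini-Hochberg adjustment over the 2 ratios tested). The ratio of *Dot1l* to *Setd1a* was 0.975, 0.95 and 0.819 in control and 0.971, 0.847 and 0.934 in Rnf40ΔSC libraries. These ranges overlapped (exact permutation p = 1).

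The WRAD core is the scaffold on which every SET1 and MLL catalytic subunit depends for full activity. Among its 4 genes, *Ash2l*, *Rbbp5* and *Dpy30* rose and *Wdr5* did not pass the test. *Ash2l* (chromosome 8, 26926663 to 26958166, minus strand), whose product binds the catalytic subunit together with RBBP5, had 87.3, 94.8 and 99.8 normalized counts in control and 124, 134 and 117 in Rnf40ΔSC libraries. *Rbbp5* (chromosome 1, 134373944 to 134402242, plus strand) had 65.1, 56.7 and 62.0 normalized counts in control and 88.6, 92.8 and 75 in Rnf40ΔSC libraries. Both genes had their lowest Rnf40ΔSC value in replicate 3 and no overlap between groups. *Dpy30* (chromosome 17, 74698814 to 74723284, minus strand), whose small product docks on ASH2L, had 47.6, 53.4 and 56.8 normalized counts in control and 93.6, 78.3 and 73.4 in Rnf40ΔSC libraries. The groups were again separate, with Rnf40ΔSC replicate 1 highest. *Wdr5*, which encodes the subunit that binds a conserved motif of the catalytic subunits, had 82.6, 80.6 and 59.4 normalized counts in control and 79.5, 84.4 and 90.2 in Rnf40ΔSC libraries, and the groups overlapped.

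In edgeR's quasi-likelihood test, Benjamini-Hochberg adjusted, log2 fold changes were 0.40 for *Ash2l* (SE 0.14, adjusted p = 0.0287), 0.48 for *Rbbp5* (SE 0.17, adjusted p = 0.0287), 0.62 for *Dpy30* (SE 0.18, adjusted p = 0.00631) and 0.22 for *Wdr5* (SE 0.17, adjusted p = 0.351). The raw counts behind them are low, from 30 to 66 in control and from 65 to 113 in Rnf40ΔSC libraries for *Dpy30*. *Wdr5* passed the same test under total-count scaling (log2 fold change 0.485, adjusted p = 0.0203). Its log2 fold change ran from 0.055 without control replicate 3 to 0.292 without control replicate 2. DESeq2 without a fold-change prior gave log2 fold changes of 0.41, 0.49 and 0.64 for *Ash2l*, *Rbbp5* and *Dpy30*, with adjusted p of 0.138 (0.00026 to 0.251 among all alternatives), 0.146 (0.000592 to 0.389) and 0.0549 (0.00011 to 0.166), so that these 3 calls were lost. In the edgeR fits that left out 1 library, the call of *Ash2l* was lost for each library except Rnf40ΔSC replicate 3 (adjusted p 0.0539 to 0.0954), that of *Rbbp5* without control replicates 2 or 3 or Rnf40ΔSC replicates 1 or 2 (0.0773 to 0.11), and that of *Dpy30* without Rnf40ΔSC replicate 1 (0.0558). A search of the mm9 genome with the longest coding transcript of each of the 10 genes found alignments of at least 100 bases at 95% identity or more elsewhere for *Rbbp5* and *Wdr5*. These covered 73.3% of the *Rbbp5* transcript and 8.55% of that of *Wdr5*, and since reads with several positions had been left out, the *Rbbp5* count in particular may rest on part of its transcript.

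RefSeq promoters (GRCm38.p6) were used for 7 of the 10 genes, and those of *Setd1b*, *Ash2l* and *Cxxc1* were not examined. That these genes were left out does not show that RefSeq lists no promoter for them. The 250 bases before the start are shown 5′ to 3′ for *Rbbp5* and *Dpy30*, which rose together, and for *Dot1l* and *Setd1a*, which did not pass the test, with CpG dinucleotides in capitals. For *Dpy30*, RefSeq lists 4 starts, of which 3 lie within 222 bases, and the most upstream of these 3 is shown.
Rbbp5, chr1:132477117-132477366, plus strand: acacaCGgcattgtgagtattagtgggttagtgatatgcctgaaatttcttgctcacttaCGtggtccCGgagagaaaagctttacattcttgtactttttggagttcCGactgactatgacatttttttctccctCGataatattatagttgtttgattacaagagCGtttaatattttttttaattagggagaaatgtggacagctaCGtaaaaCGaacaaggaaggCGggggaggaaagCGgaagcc
Dpy30, chr17:74316434-74316683, minus strand: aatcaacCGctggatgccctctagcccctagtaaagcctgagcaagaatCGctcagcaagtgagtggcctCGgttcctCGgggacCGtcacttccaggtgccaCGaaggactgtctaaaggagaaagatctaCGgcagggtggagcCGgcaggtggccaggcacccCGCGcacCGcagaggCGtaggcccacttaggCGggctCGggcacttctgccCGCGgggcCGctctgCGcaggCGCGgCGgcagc
Dot1l, chr10:80754953-80755202, plus strand: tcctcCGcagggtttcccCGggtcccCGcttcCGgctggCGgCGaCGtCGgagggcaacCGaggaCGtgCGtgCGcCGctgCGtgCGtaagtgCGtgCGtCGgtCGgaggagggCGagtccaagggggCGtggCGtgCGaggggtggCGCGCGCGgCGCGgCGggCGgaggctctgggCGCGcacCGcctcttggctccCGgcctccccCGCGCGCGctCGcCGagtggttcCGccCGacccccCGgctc
Setd1a, chr7:127777139-127777388, plus strand: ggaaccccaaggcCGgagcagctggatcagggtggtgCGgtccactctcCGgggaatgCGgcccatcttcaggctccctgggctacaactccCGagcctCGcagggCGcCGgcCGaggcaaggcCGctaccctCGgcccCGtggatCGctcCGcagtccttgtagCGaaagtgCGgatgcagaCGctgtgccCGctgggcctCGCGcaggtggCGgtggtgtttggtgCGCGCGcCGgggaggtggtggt

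These windows held 10 CpG dinucleotides for *Rbbp5*, 21 for *Dpy30*, 44 for *Dot1l* and 25 for *Setd1a*, beside a median of 6 over the 32851 promoters of the table, of which 37.8% held at least 10. Those of the other genes examined held 12 (*Wdr5*), 24 (*Wdr82*) and 8 (*Men1*, the most upstream of its 3 starts). The windows before the remaining starts of *Dpy30* held 1, 28 and 34, so that its number depends on the start taken. On both strands, the letters GCGTGGGCG, bound by EGR factors, were in none of these 7 windows (0.536% of all promoters of the same length hold them), and the letters CCGGAAG, bound by ETS factors, occurred once, in *Dot1l* (6.91% of all promoters).

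Among the subunits particular to SET1, *Cxxc1*, whose product binds unmethylated CpG dinucleotides, had 95.3, 105 and 78.3 normalized counts in control and 102, 85.6 and 132 in Rnf40ΔSC libraries. *Wdr82*, which encodes the subunit that tethers SET1 to initiating RNA polymerase II, had 167, 217 and 170 normalized counts in control and 204, 176 and 216 in Rnf40ΔSC libraries. Both genes overlapped between groups, with log2 fold changes of 0.23 (SE 0.16) and 0.11 (SE 0.12) and adjusted p of 0.294 and 0.517 in edgeR's quasi-likelihood test, Benjamini-Hochberg adjusted. Under total-count scaling both passed this test (0.502 and 0.382, adjusted p = 0.0137 and 0.0104). *Cxxc1* ran from 0.054 without Rnf40ΔSC replicate 3 to 0.356 without Rnf40ΔSC replicate 2. *Wdr82* ran from 0.044 without control replicate 3 to 0.242 without control replicate 2. *Men1*, the gene of menin, had 121, 141 and 126 normalized counts in control and 107, 124 and 95.8 in Rnf40ΔSC libraries. Rnf40ΔSC replicate 2 lay within the control range and the others below it. Its log2 fold change of -0.26 (SE 0.14) did not pass the same test (adjusted p = 0.158 in edgeR's quasi-likelihood test, Benjamini-Hochberg adjusted) and was 0.01 under total-count scaling.

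**Figure D2:**
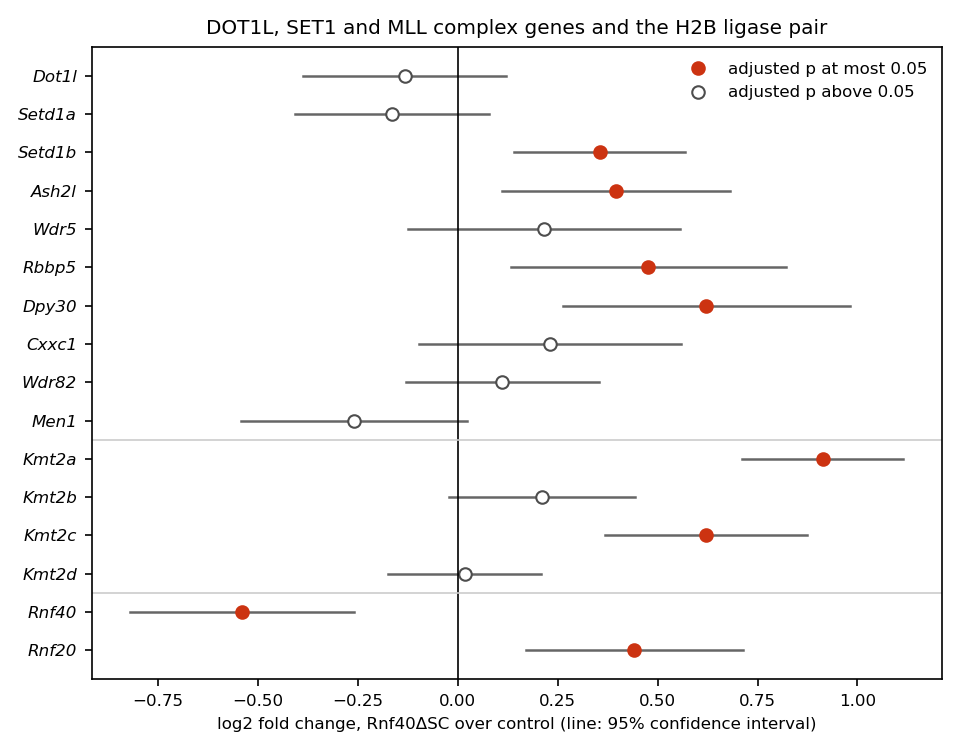
Log2 fold change between Rnf40ΔSC and control nerves (x axis; points, with lines for the 95% confidence interval, n = 3 libraries each) for the 10 genes, the catalytic subunits of the MLL complexes and the H2B ligase pair; filled points have an adjusted p of at most 0.05. *Kmt2a* lies farthest to the right, and the points of *Dot1l*, *Setd1a* and *Men1* lie left of 0 on the TMM scale and right of it under total-count scaling.

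Levels were compared between genes as TMM-scaled CPM per kilobase of merged exons. In control nerves *Dpy30* was highest at 27.9 ± 2.46 (SD, n = 3), followed by *Men1* at 19.2 ± 1.55, *Wdr82* at 19.0 ± 2.87, *Cxxc1* at 18.3 ± 2.62 and *Setd1a* at 15.5 ± 1.25. *Dot1l* at 11.0 ± 0.168, *Setd1b* at 10.8 ± 0.89, *Wdr5* at 10.6 ± 1.84, *Ash2l* at 9.26 ± 0.621 and *Rbbp5* at 8.69 ± 0.604 came next. Neighbours in this order overlapped over libraries except *Dpy30* with *Men1* and *Setd1a* with *Dot1l*, and the highest mean was 3.2 times the lowest. The count of *Rbbp5*, the lowest, may leave out reads from the 73.3% of its transcript that aligns elsewhere. For *Setd1a*, 51.9% of exon bases are shared with *Hsd3b7*. Both levels are uncertain for these reasons, and so are their places in the order and the 3.2-fold span. In Rnf40ΔSC nerves *Dpy30* was again highest at 43.2 ± 5.57, *Setd1b* was at 13.8 ± 1.03, *Setd1a* at 13.8 ± 2.31 and *Dot1l*, the lowest, at 9.88 ± 2.01. With the length of the longest transcript in place of merged exons the order of *Setd1b*, *Ash2l*, *Dot1l* and *Wdr5* in control nerves changed, so that these are not told apart. In Rnf40ΔSC nerves that length put *Setd1b* at 19.6 ± 1.46, above *Setd1a* at 14.4 ± 2.42 without overlap, and *Rbbp5* at 12.1 ± 1.32 lowest, so that the order of these genes also depends on the length used. The places of *Rbbp5* and *Setd1a* are uncertain here too, since part of their sequence may not have been counted.

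The catalytic subunits of the MLL complexes share the WRAD core with SETD1A and SETD1B. *Kmt2a*, which encodes the founding member MLL1, had 216, 250 and 242 normalized counts in control and 465, 439 and 434 in Rnf40ΔSC libraries. *Kmt2c*, the gene of an enhancer-associated subunit, had 119, 118 and 133 in control and 211, 170 and 189 in Rnf40ΔSC libraries. Both were separate between groups, and *Kmt2a* was nearly level within each. They rose 1.88-fold and 1.54-fold, with log2 fold changes of 0.91 (SE 0.10, adjusted p = 2.47e-09) and 0.62 (SE 0.13, adjusted p = 0.000154) in edgeR's quasi-likelihood test, Benjamini-Hochberg adjusted, and both passed under each of the 17 alternatives. *Kmt2b* and *Kmt2d*, with log2 fold changes of 0.21 (SE 0.12) and 0.02 (SE 0.10), did not pass, but did under total-count scaling (log2 fold changes of 0.48 and 0.29). Without Rnf40ΔSC replicate 3, *Kmt2b* was at 0.095 and *Kmt2d* at -0.08. Without Rnf40ΔSC replicate 2 they were at 0.303 and 0.076.

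Within a library, the share of each of the 6 H3K4 catalytic subunits in their summed level per kilobase of merged exons does not depend on scaling. It does depend on the length used. In Rnf40ΔSC nerves the mean levels of *Setd1b* and *Setd1a* were 13.8 and 13.8 with merged exons and 19.6 and 14.4 with the longest transcript. The order of the shares between genes is uncertain for this reason. *Setd1a* took 21.6%, 22.4% and 24.4% of the sum in control and 16.9%, 16.4% and 18.8% in Rnf40ΔSC libraries. *Kmt2a* took 9.89%, 11.5% and 10.8% in control and 18.7%, 18.5% and 15.3% in Rnf40ΔSC libraries. The groups were separate in both, with *Setd1a* smaller and *Kmt2a* larger in Rnf40ΔSC nerves. They were also separate for *Kmt2c*, larger at 5.49% to 6.97% against 4.46% to 4.90% in control, and for *Kmt2d*, smaller at 24.6% to 26.3% against 28.4% to 30.9%. The shares add up to the whole, so the rise of *Kmt2a* and *Kmt2c* by itself makes the other shares smaller, and a smaller share is not a fall in level. Neither *Setd1a* nor *Kmt2d* passed the test on TMM-scaled counts, where *Kmt2d* was at 1.01-fold. *Setd1b* took 14.7% to 17.0% in control and 16.7% to 18.8% in Rnf40ΔSC libraries, which overlapped. No test was run on these shares, which were computed after the values of the genes had been seen. The size of the *Setd1a* share is also uncertain, since 51.9% of its exon bases are shared with *Hsd3b7*.

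**Figure D3:**
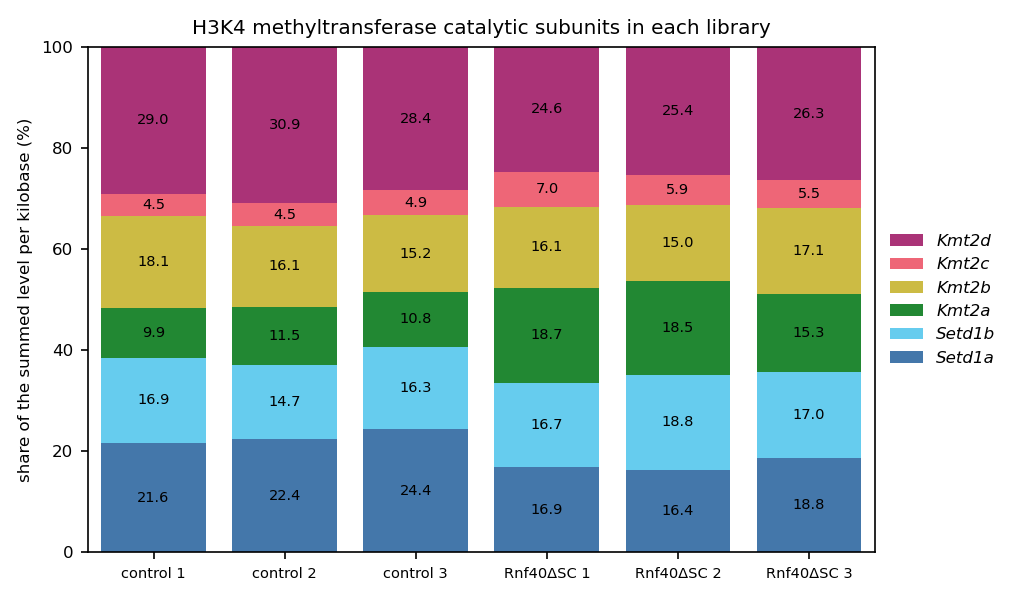
Share (%, y axis) of each of 6 H3K4 methyltransferase catalytic subunits in their summed level per kilobase of merged exons, stacked for each of 3 control and 3 Rnf40ΔSC libraries. The *Kmt2a* and *Kmt2c* segments are larger and the *Setd1a* and *Kmt2d* segments are smaller in the Rnf40ΔSC libraries, as shares of a sum in which *Kmt2a* and *Kmt2c* rose.

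Genes of neighbouring pathways were counted in the same test, in which 15.4% of all genes rose and 16.2% fell. In the MLL family complexes, 2 of 11 genes rose (*Kmt2a* and *Kmt2c*) and 0 fell by edgeR's quasi-likelihood test after adjustment (0 also by DESeq2, and 2 lower at an unadjusted p under 0.05). Among 7 partners of DOT1L, 3 rose, namely *Aff1* (log2 fold change 0.50), *Mllt10* (0.39) and *Mllt3* (0.40), which encode subunits of elongation complexes. DESeq2 without a fold-change prior called 1 of these 7, *Aff1*. With 1 library left out, *Mllt10* and *Mllt3* each missed the threshold in 4 of 6 fits, both of them without control replicate 1 (adjusted p = 0.127 and 0.189) and without Rnf40ΔSC replicate 2 (0.0625 and 0.0887). Among 6 H3K4 demethylases, 4 rose, namely *Kdm5a* (0.73), *Kdm1a* (0.66), *Kdm5b* (0.39) and *Kdm5c* (0.33), and 1 fell, *Kdm1b* (-0.57). DESeq2 without a fold-change prior called 2 of these 6 higher, *Kdm5a* and *Kdm1a*, and 0 lower. *Kdm5b* and *Kdm5c* also missed the threshold without control replicate 3 (adjusted p = 0.1 and 0.203), and *Kdm5c* without Rnf40ΔSC replicate 1 (0.0540) or 2 (0.0918).

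Among 11 genes of the H2B ubiquitin ligase and the PAF1 complex, 5 rose and 2 fell. *Rnf20*, the partner of *Rnf40*, had 127, 128 and 112 normalized counts in control and 176, 184 and 137 in Rnf40ΔSC libraries. Its groups were separate, with Rnf40ΔSC replicate 3 nearest to control, and the log2 fold change was 0.44 (SE 0.13, adjusted p = 0.00998 in edgeR's quasi-likelihood test, Benjamini-Hochberg adjusted). With edgeR it did not pass without control replicate 3 (adjusted p = 0.087) or Rnf40ΔSC replicate 1 (0.057; 5.82e-05 to 0.501 among all alternatives), nor did it with DESeq2 without (0.0665) or with a fold-change prior (0.0648). *Rtf1*, a PAF1-associated factor needed for H2B ubiquitination, and *Ube2b*, an E2 enzyme of the mark, rose by log2 fold changes of 0.47 and 0.36, as did *Paf1* (0.34) and *Wdr61* (0.51), and *Ube2a*, the paralogue of *Ube2b*, fell by 0.52 on the log2 scale although its groups overlapped. *Ube2b* missed the threshold without control replicate 1 (adjusted p = 0.0943), control replicate 3 (0.0743) or Rnf40ΔSC replicate 1 (0.0558). DESeq2 without a fold-change prior called 1 of these 11 higher, *Rtf1*, and 1 lower, *Rnf40*. Among 17 other histone lysine methyltransferases tested of 18 listed, 7 rose and 4 fell. The 4 with the smallest p were *Setd8* (Kmt5a), the H4K20 monomethyltransferase, which fell to 0.422-fold, and *Setd2*, *Ehmt1* and *Ash1l*, which rose 1.46-fold, 1.49-fold and 1.43-fold. The others that fell were *Ehmt2*, *Suv420h2* (Kmt5c) and *Setd7*, and DESeq2 without a fold-change prior called 4 of these genes higher and 3 lower. Counted over these 5 lists, 21 genes rose and 7 fell. Under total-count scaling 35 rose and 2 fell (3766 and 880 over all genes). With DESeq2 without a fold-change prior 10 rose and 4 fell (1097 and 1170 over all genes). Without control replicate 3, 13 rose and 4 fell (1293 and 1439 over all genes). The number that fell was likewise 4 without control replicate 2 or Rnf40ΔSC replicate 1 (1519 and 1482 over all genes).

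Markers of cell types moved with the genotype and with single libraries. The 14 skeletal muscle markers, with *Myh4* most abundant, summed to 4607, 3363 and 2560 CPM in control and to 107, 271 and 3718 CPM in Rnf40ΔSC libraries. Rnf40ΔSC replicate 3 thus lay within the control range and replicates 1 and 2 far below it, and 0 of the 14 genes passed edgeR's quasi-likelihood test in either direction (0 at an unadjusted p under 0.05 and 0 by DESeq2). Of the Rnf40ΔSC values of *Dot1l* and *Setd1a*, those of replicates 1 and 2 were below all controls, and that of replicate 3 was above them for *Dot1l* and among them for *Setd1a*. In a fit of Rnf40ΔSC replicate 3 alone against control, chosen after seeing the data and with the lone library assumed to vary like the controls, so that the signs restate the values of that library, the log2 fold changes were 0.12 for *Dot1l*, 0.07 for *Setd1a* and 0.46 for *Setd1b*. With the muscle markers removed before scaling, the log2 fold changes of the 3 genes were -0.13, -0.17 and 0.35. This removal leaves any reads of these 3 genes that came from muscle in their counts, so it cannot show the part of muscle in their values. That part was not tested.

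The 14 Schwann cell markers summed to 105200, 116800 and 112200 CPM in control and 33710, 33730 and 34030 CPM in Rnf40ΔSC libraries. Of these markers 10 fell and 4 rose, namely *Sox2*, *Pou3f1*, *Pou3f2* and *Egr2*, which encode transcription factors of Schwann cell development. Not all such genes rose. *Sox10*, which also encodes a transcription factor of this lineage, fell (log2 fold change -0.79). So did *Ngfr* (-0.90), listed with *Sox2*, *Pou3f1* and *Pou3f2* as a marker of immature or promyelinating cells. Markers fell in 6 of 7 for fibroblasts and perineurial cells (*Col3a1* most abundant), 4 of 7 for endothelial and mural cells (*Cdh5*; *Pecam1*, *Kdr* and *Rgs5* also fell), 6 of 7 tested for macrophages (*Csf1r*; *Aif1* had 3 counts or fewer in every library) and 3 of 5 for adipocytes (*Fabp4* most abundant; *Adipoq*, *Plin1* and *Cfd* fell), and 0 of these rose by edgeR's quasi-likelihood test (0 at an unadjusted p under 0.05 and 0 by DESeq2). DESeq2 without a fold-change prior called 4, 4, 3 and 3 markers of these 4 lists lower, in the same order. The edgeR calls are on the TMM scale. By staining, the paper reports a larger share of Iba1-positive macrophages in Rnf40ΔSC nerves at this age, opposite in direction to these marker counts. The reason for this difference was not tested. Of 7 proliferation markers tested 3 rose (*Mki67*, the most abundant, *Top2a* and *Mcm2*), and of the neuronal markers 1 was tested and rose (*Snap25*, not called by DESeq2 without a prior; *Rbfox3* had 3 counts or fewer in every library). Summed CPM in control and Rnf40ΔSC libraries ran from 47140 to 52200 and from 42520 to 43350 for fibroblast and perineurial markers, and from 326 to 364 and from 278 to 302 for macrophage markers, without overlap. They ran from 763 to 1061 and from 719 to 915 for endothelial and mural markers, and from 747 to 1324 and from 727 to 966 for adipocyte markers, which overlapped. The part of these changes in the values of the DOT1L and SET1 genes was not tested.

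**Figure D4:**
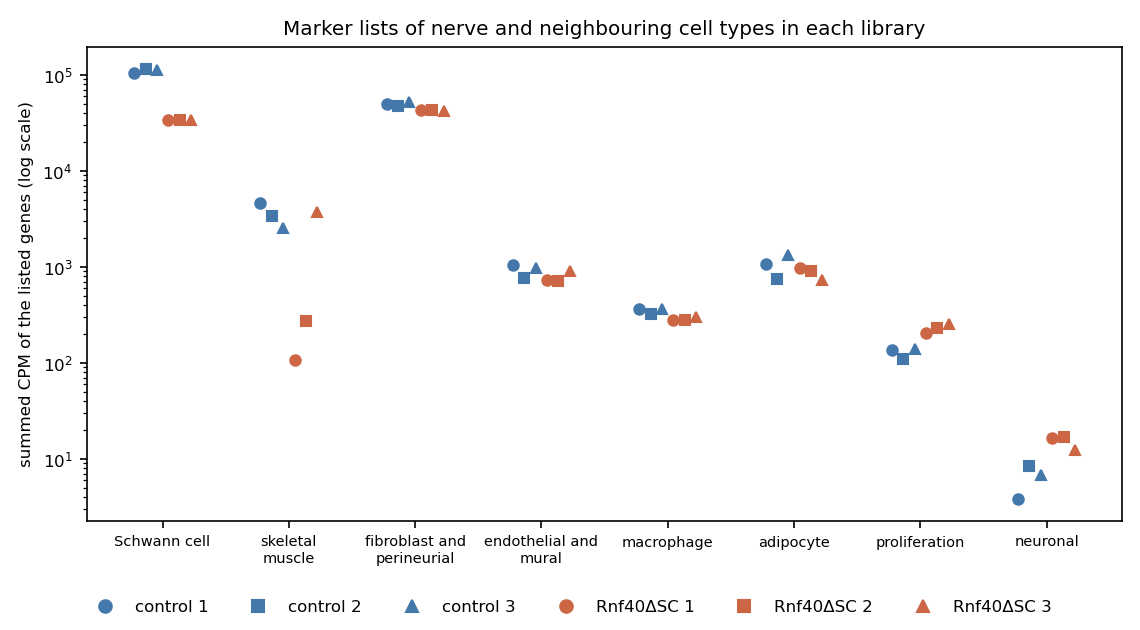
Summed CPM (log axis) of the genes of 8 marker lists in each of 3 control and 3 Rnf40ΔSC libraries; symbols are libraries. Schwann cell markers are lower in all Rnf40ΔSC libraries, and skeletal muscle markers are low in Rnf40ΔSC replicates 1 and 2 only.

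The genes whose pattern over the 6 libraries was most like those of the methyltransferases were sought among 6343 genes with a mean of at least 50 normalized counts, by Pearson's r of log2 CPM. For *Dot1l* they were *Slit3* (r = 0.992), *Cep68* (0.987) and *Map3k11* (0.983), and 23 genes had an r above 0.95. For *Setd1a* they were *Ablim3* (0.987), *Zfp579* (0.981) and *Ston2* (0.975), with 18 genes above 0.95. For *Setd1b* they were *Coro2b* (0.996), *Crtc1* (0.996) and *Nmrk1* (0.991), with 82 genes above 0.95. Since these genes were picked over the same libraries, whether they differ between genotypes follows from the gene they resemble.

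**Figure D5:**
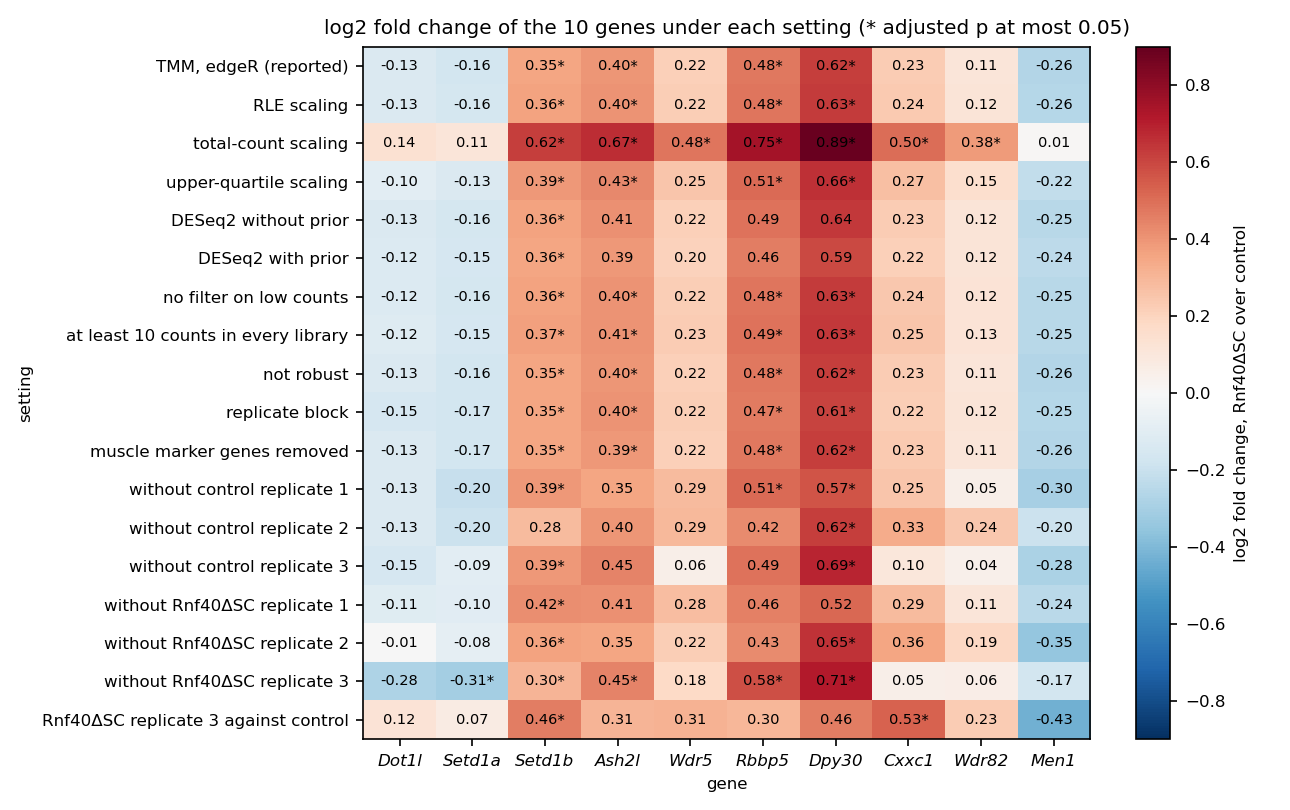
Log2 fold change (colour and printed value) of each of the 10 genes (x axis) in the reported fit and under 17 alternative settings (y axis), with a star for an adjusted p of at most 0.05. *Setd1b* keeps its star except without control replicate 2, and *Dot1l*, *Setd1a* and *Men1* change sign under total-count scaling.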

How the data were processed

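Total RNA from sciatic nerves had been sequenced in 3 control and 3 Rnf40ΔSC libraries. Per the methods, the authors aligned reads to mm9 with TopHat and deposited counts of uniquely mapped reads per gene from HTSeq, as whole numbers without normalization. The submitters' processing notes name Bowtie2 2.1.0, HTSeq, DESeq2 and both mm9 and mm10. The methods name a directional NEXTFLEX kit and the labels NEB Next Ultra, alike for all libraries. The strand setting and gene annotation of the counting are not given in the sources used here, so overlapping genes are uncertain.

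The test was edgeR 4.0.16 (R 4.3.3) on the 11371 genes passing filterByExpr, with TMM scaling, a robust quasi-likelihood fit of genotype alone, and Benjamini-Hochberg adjustment over all genes tested. A gene rose or fell at an adjusted p of at most 0.05. Replicates differed by more than sampling noise (chi-square per degree of freedom 1.78 to 5.21). Positions and lengths came from the GENCODE vM1 annotation of mm9, and promoters from RefSeq. Genes named were the 10 members, *Rnf40*, *Rnf20*, the MLL catalytic subunits, up to 4 called genes with the smallest p per list, the most abundant marker of lists for other cell types and the 3 most similar genes; other genes named were chosen after their values were seen. The members and lists were chosen with earlier results of these data known. The scripts were tested on simulated counts. Alternatives were RLE, upper-quartile or total-count scaling, DESeq2 1.42.0 with or without a fold-change prior, other filters on low counts, a fit without robust estimation, the replicate number as a block, muscle markers removed, each library left out in turn, the longest transcript as length, and 0.5 added to each count for ratios.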

Additional observations from a re-analysis of the deposited data

How the results depend on the processing

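The members had 30 to 394 counts per library, and the standard errors of their log2 fold changes, which hold both counting error and the spread between libraries, were 0.11 to 0.18. The log2 fold changes of *Setd1b*, *Ash2l*, *Wdr5*, *Rbbp5*, *Dpy30*, *Cxxc1* and *Wdr82* were positive under all 17 alternatives. Total-count scaling reversed *Dot1l* (0.14), *Setd1a* (0.11) and *Men1* (0.009), and gave *Rnf40* -0.27, 7 members higher, 1 past the limits of the study, 35 context genes higher and 2 lower, and a median of the members of 0.49, by construction of the scaling; over all genes it called 3766 higher and 880 lower, beside 1756 and 1841 with TMM. DESeq2 without a fold-change prior called 1 member, 10 context genes higher and 4 lower, and 1097 higher and 1170 lower over all genes; with the prior these were 1, 10, 4, 1123 and 1191. Rnf40ΔSC replicate 3 against control, a lone library chosen after seeing the data, whose own values set the signs, reversed *Dot1l* (0.12) and *Setd1a* (0.074) and called 2 members, 12 context genes higher and 3 lower, and 1119 genes higher in all, from fewer samples. Leaving out each library in turn gave 1 to 4 members higher, 0 to 1 lower, 13 to 21 context genes higher and 4 to 8 lower, a median of the members of 0.078 to 0.29, log2 fold changes of -0.081 to 0.076 for *Kmt2d* and -0.072 to 0.062 for the log2 difference of the *Dot1l* to *Setd1a* ratio; the cause of these changes was not tested. The longest transcript in place of merged exons gave 3.9 in place of 3.2 for the ratio of the highest to the lowest level. The lowest was *Rbbp5*, whose count may rest on part of its transcript, so that both ratios are uncertain. Same-numbered libraries did not deviate together (correlations -0.10, -0.01 and -0.06). With 3 libraries per genotype this cannot show whether the numbers pair them, and the sample titles give only a replicate number. With the replicate block, 4 members were higher, 0 lower and 0 past the limits of the study. In that fit 21 context genes were higher and 7 lower, the median of the members was 0.22 and *Rnf40* was -0.54.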
